A study of Homo sapiens with 18 samples.

Results

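The early transcriptional response of wild-type (WT) A549 cells to hydrogen peroxide (H2O2) was measured in 6 poly(A) mRNA sequencing libraries, chosen by their labels from the 18 libraries of the series. Of these, 3 were made from WT cells given 100 µM H2O2 for 2 h and 3 from untreated WT cells, each group a set of 3 biological replicates by the design text. A549 is an established human lung adenocarcinoma cell line of epithelial origin. The labels call these cells wild type and their libraries Ctrl, and the sources used here do not state whether they carried a control construct, or the culture conditions, serum and vehicle of the peroxide. The other 12 libraries came from stable S100A16 knockdown (KD) cells given H2O2 or left untreated and from untreated hnRNPM and MagoHB KD cells, in a study of S100A16 and alternative splicing under oxidative stress. All genes that passed a filter on low counts were described, 19803 of the 44016 features in the deposited count table.

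Hydrogen peroxide is a small oxidant that crosses membranes and oxidises reactive cysteines of phosphatases, peroxiredoxins and the NRF2 inhibitor KEAP1. Through stress kinases of the MAPK family it turns on immediate early genes, which need no new protein synthesis and encode transcription factors of the AP-1 and EGR families and the phosphatases and RNA-binding proteins that switch the signal off again. A549 cells carry a KEAP1 mutation, so NRF2 target genes are already high in them without an oxidant.

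The 6 libraries held between 37005520 and 48482897 counts, with the lowest total in H2O2 replicate 3. In counts scaled to library size (CPM), the summed level of 6 epithelial markers was 4640 to 4950 in H2O2 libraries and 4280 to 4630 in untreated libraries, nearly all of it from KRT8 and KRT18, and KRT19 and CLDN4 were near or below 1 CPM. Of 7 genes typical of A549, which include the aldo-keto reductases AKR1B10 and AKR1C1, the sum was 14300 to 15300 CPM in H2O2 libraries and 13400 to 14000 CPM in untreated libraries. Of 7 alveolar type II cell markers, 6 were under 1 CPM, with ABCA3 as the exception, so the identity of that lung cell is not visible in this line. Leukocyte markers summed to at most 1.84 CPM and endothelial markers to at most 0.946 CPM in any of these libraries, and CD3E was at 0 in all 6. The fibroblast-type collagen COL1A1 was 44.0 CPM in untreated replicate 3 and between 23 and 25 CPM in the other libraries. S100A16, the gene targeted in the KD line, had 114, 109 and 119 CPM in H2O2 libraries, against 107, 110 and 110 CPM in untreated libraries (adjusted p = 0.484). As in any bulk measurement, fewer cells of a kind and less RNA per cell cannot be told apart.

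Peroxide changed 555 genes by edgeR's quasi-likelihood test with Benjamini-Hochberg adjustment, 2.8% of the genes tested. Of these, 304 rose (1.54%) and 251 fell (1.27%), and most changes were small, with a median log2 fold change of 0.24 among genes that rose and -0.21 among those that fell. Of the larger changes, 65 genes rose by at least 0.5 on the log2 scale, against 30 that fell by as much, and 24 against 6 passed a log2 change of 1. All 6 of the large falls were genes near the detection limit; the highest of them, LINC01355 (named after its values were seen), had a mean of 1.91 CPM and fell by 1.40. In 543 of the 555 genes the H2O2 and untreated libraries did not overlap. Among all genes tested, 9.9% had every H2O2 library above every untreated one and 9.6% the reverse. The 555 were chosen by a test on these same libraries, so their separation adds no support. The number of genes passing depended on single libraries: 225 passed without untreated replicate 1, 235 without untreated replicate 2, 359 without H2O2 replicate 1 and 367 without H2O2 replicate 3. It was 50 in a fit over all 18 libraries, and limma on log2(RPKM + 0.1) passed 106, of which 77 rose and 29 fell. A core of 34 genes, 22 higher and 12 lower, passed under each of the alternatives that measured them.

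**Figure D1:**
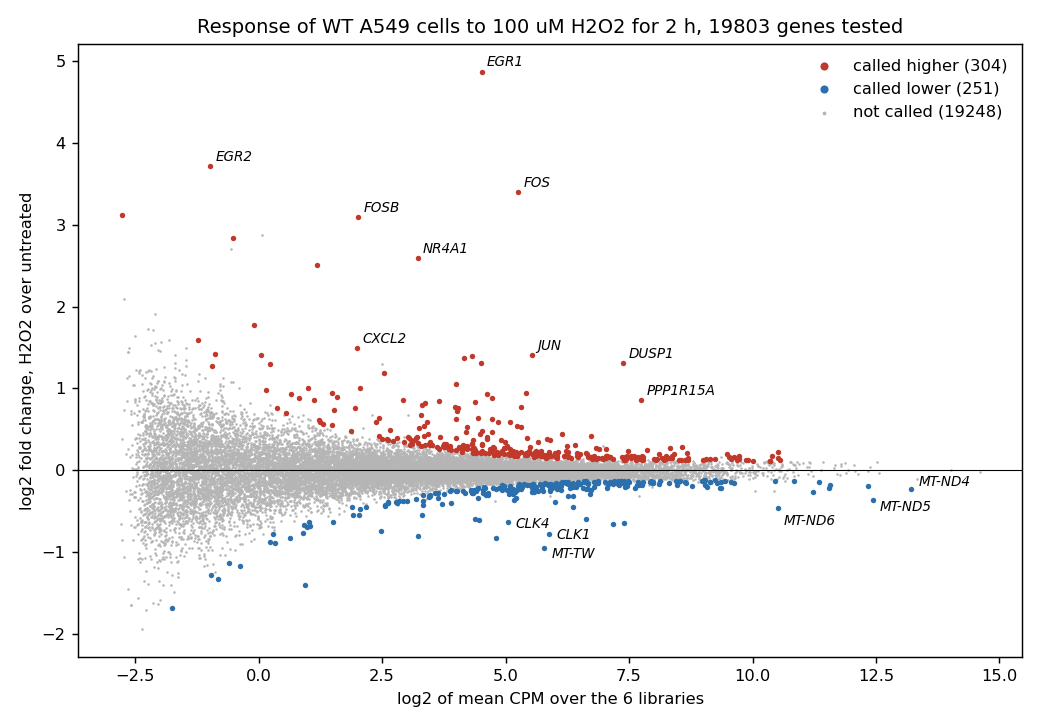
Log2 fold change of H2O2 over untreated WT cells (vertical axis) against the log2 of the mean CPM over the 6 libraries (horizontal axis) for the 19803 genes tested, with 304 genes called higher in red, 251 called lower in blue and the rest in grey. EGR1, FOS, FOSB, EGR2 and NR4A1 stand apart above, while the falls of CLK1 and MT-TW are below 1 in size.

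The strongest response came from the AP-1 and EGR transcription factors, the first genes switched on by growth factors and stress. Of the 10 tested from a list of 12, 9 rose and none fell, against 1.54% higher among all genes tested. The median log2 fold change was 1.12, against -0.001 over all genes tested. EGR1, a zinc finger factor, had 44.9, 48.2 and 39.4 CPM in H2O2 libraries, against 1.64, 1.71 and 1.18 CPM in untreated libraries, a 29.3-fold difference (log2 4.87, SE 0.098, adjusted p = 2.13e-28). FOS, which pairs with JUN proteins in the AP-1 dimer, had 71.9, 73.2 and 64.2 CPM in H2O2 libraries, against 6.22, 6.87 and 6.72 CPM in untreated libraries, a 10.6-fold difference (log2 3.40, SE 0.062, adjusted p = 5.94e-37). The lowest H2O2 library lay far above the highest untreated library for both genes, and H2O2 replicate 3 was the lowest of its group in each.

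FOSB, the closest relative of FOS, had 7.91, 8.03 and 5.86 CPM in H2O2 libraries, against 1.09, 0.874 and 0.588 CPM in untreated libraries (log2 3.10, adjusted p = 1.22e-17). EGR2, near the detection limit, also rose, with 1.35, 0.890 and 0.591 CPM in H2O2 libraries and 0.042, 0.0416 and 0.126 CPM in untreated libraries. JUN, which was already expressed, had 63.2, 68.2 and 70.4 CPM in H2O2 libraries, against 26.3, 24.1 and 25.7 CPM in untreated libraries (log2 1.41, adjusted p = 1.62e-25). The other AP-1 members rose less, JUNB by 0.83, FOSL1 by 0.41 and JUND by 0.41 on the log2 scale. SRF, the serum response factor that itself drives immediate early genes, rose by 0.34 (adjusted p = 0.0121), and FOSL2 at -0.04 was the tested member that did not pass. In the fit over all 18 libraries EGR1, FOS, FOSB, EGR2 and JUNB passed, and JUN, FOSL1, JUND and SRF did not.

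**Figure D2:**
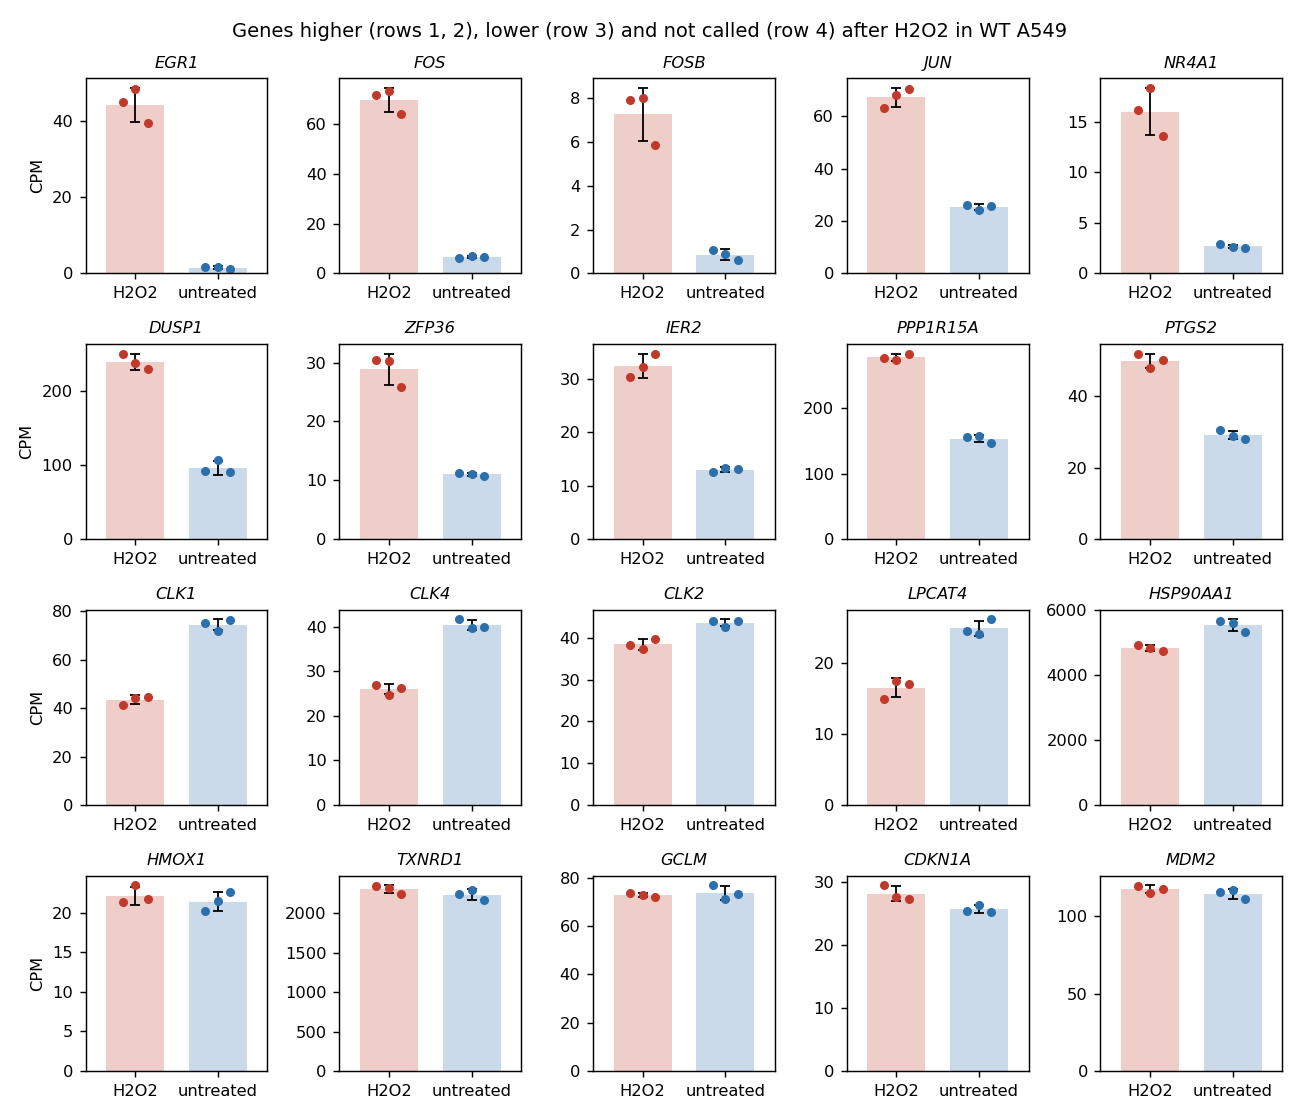
Level in CPM (vertical axes, from 0) of 20 genes in the 3 H2O2 libraries (red, left) and the 3 untreated libraries (blue, right) of WT A549 cells, with points for libraries, bars for the mean and error bars for the SD. The groups are separate for the 10 genes of the upper rows and the 5 genes of the third row, while HMOX1, TXNRD1, GCLM and MDM2 overlap and CDKN1A differs by 0.13 on the log2 scale without passing the test.

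Bases just upstream of the annotated start are shown for 6 of the genes that rose, because they hold examples of the short sequence elements counted below. Sequences are from RefSeq, build GRCh38.p14, 5′ to 3′ along the gene, and each ends 1 base before the start. Capitals mark the serum response element core (CArG box) in EGR1 and SRF, the TATA box in FOS, FOSB, DUSP1 and PPP1R15A, and the cAMP response element in DUSP1 and PPP1R15A. The positions are chr5:138465349-138465478 (plus strand) for EGR1, chr6:43171139-43171268 (plus) for SRF, chr14:75278698-75278827 (plus) for FOS, chr19:45467866-45467995 (plus) for FOSB, chr5:172771196-172771325 (minus) for DUSP1 and chr19:48872291-48872420 (plus) for PPP1R15A.
EGR1: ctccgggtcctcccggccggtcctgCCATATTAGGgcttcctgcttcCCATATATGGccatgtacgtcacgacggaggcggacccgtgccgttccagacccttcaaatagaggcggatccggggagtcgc
SRF: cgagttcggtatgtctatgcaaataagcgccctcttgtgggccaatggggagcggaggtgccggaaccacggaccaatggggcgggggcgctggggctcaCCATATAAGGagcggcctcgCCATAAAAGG
FOS: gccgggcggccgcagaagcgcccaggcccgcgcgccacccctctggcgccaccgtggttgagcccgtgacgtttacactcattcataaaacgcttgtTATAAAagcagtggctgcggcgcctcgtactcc
FOSB: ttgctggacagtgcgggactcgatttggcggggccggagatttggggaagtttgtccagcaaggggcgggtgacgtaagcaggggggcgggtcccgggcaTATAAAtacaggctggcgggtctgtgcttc
DUSP1: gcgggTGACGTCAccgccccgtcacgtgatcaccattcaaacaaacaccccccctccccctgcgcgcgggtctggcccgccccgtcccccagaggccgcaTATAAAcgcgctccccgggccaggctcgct
PPP1R15A: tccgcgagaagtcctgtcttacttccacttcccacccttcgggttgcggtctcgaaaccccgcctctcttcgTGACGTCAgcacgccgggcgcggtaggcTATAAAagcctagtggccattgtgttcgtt

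In the stretches above, EGR1 and SRF each held 2 CArG boxes and no TATA box, and the TATA box of the other 4 genes began between -33 and -30 from the start. Motifs were counted on both strands from 250 bases before to 50 bases after the start, in the 11481 tested genes with a matching RefSeq promoter. The TATA box (TATAAA) was in 37.9% of 29 promoters of early and feedback genes that rose, in 34.2% of 38 promoters of genes that rose by at least 0.5, in 3.59% of 167 promoters of genes that fell and in 5.9% of all. For the cAMP response element (TGACGTCA) the shares were 17.2% of the early genes that rose, 4.79% of genes that fell and 3.17% of all, and for the CArG box 6.9%, 2.4% and 1.05% in the same order. The CArG share of the early genes is 2 promoters, those of EGR1 and SRF, and over all 211 promoters of genes that rose it was 1.42%, below that of genes that fell. The AP-1 element (TGANTCA) was in 0 of the 29 early promoters and in 4.82% of all, and the antioxidant response element core (TGACNNNGC) was in 17.1% of the 211 promoters of all genes that rose and in 14.9% of all. These are counts of letters in a window, with no test, and a TGACGTCA can share letters with a TGACNNNGC.

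Of 42 other immediate early genes tested, 23 rose and 1 fell, with a median of 0.37, against 1.54% higher and 1.27% lower among all genes. In the fit over all 18 libraries NR4A1, NR4A2, IER2, IER3, KLF2, KLF10, CYR61 and RHOB passed. The other called members, among them ATF3, PPP1R15A, CTGF and MCL1, did not pass in that fit. NR4A1, an orphan nuclear receptor, had 16.1, 18.3 and 13.6 CPM in H2O2 libraries, against 2.88, 2.58 and 2.52 CPM in untreated libraries (log2 2.59, adjusted p = 2.71e-22), and its relative NR4A2 rose by 1.19. IER2, a small nuclear protein, had 30.3, 32.1 and 34.7 CPM in H2O2 libraries, against 12.5, 13.4 and 13.1 CPM in untreated libraries. Both groups were tight and far apart for these genes. Others that rose include KLF2 by 1.40, the secreted matrix proteins CTGF by 1.06 and CYR61 by 0.93, KLF10 by 0.95, IER3 by 0.88, ATF3 by 0.78, RHOB by 0.73, GADD45B by 0.52 and the anti-apoptotic MCL1 by 0.42. Of the EGF receptor ligands on the list, EREG rose by 0.40 and AREG by 0.31, while HBEGF, at 0.46 and a mean of 2.34 CPM, did not pass (adjusted p = 0.153).

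PPP1R15A encodes GADD34, which brings a phosphatase to the translation factor eIF2α, and it rose too. Its levels were 276, 273 and 283 CPM in H2O2 libraries, against 156, 157 and 147 CPM in untreated libraries (log2 0.86, SE 0.036, adjusted p = 1.2e-22). MYC rose by 0.18 (adjusted p = 0.0256), from a list on which GADD45A was the member that fell. GADD45A, a DNA damage gene and relative of GADD45B, had 26.5, 25.2 and 25.5 CPM in H2O2 libraries, against 29.7, 31.3 and 29.5 CPM in untreated libraries (log2 -0.23, adjusted p = 0.01). GADD45A and GADD45B thus changed in opposite directions, each without overlap between the groups.

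Several genes that end MAPK signals also rose. Of 23 MAPK phosphatases and feedback regulators tested, 8 rose and none fell (median 0.16), against 1.54% higher among all genes tested. DUSP1, which removes phosphate from JNK and p38, had 250, 237 and 229 CPM in H2O2 libraries, against 92.0, 107 and 89.9 CPM in untreated libraries (log2 1.31, SE 0.053, adjusted p = 3.46e-12). The ERK phosphatases DUSP6 and DUSP5 rose by 0.80 and 0.63, and the receptor tyrosine kinase inhibitors SPRY2 by 0.59 and ERRFI1 by 0.24. PHLDA1 rose by 0.54, TRIB1 by 0.45 and the cytokine gene LIF by 0.27. In the fit over all 18 libraries DUSP1, PHLDA1 and LIF passed, and DUSP6, DUSP5, SPRY2, ERRFI1 and TRIB1 did not. Of 12 factors of AU-rich mRNA decay, which destroys early response mRNAs, 3 rose and none fell. ZFP36 (tristetraprolin), which binds AU-rich elements, had 30.5, 30.3 and 25.8 CPM in H2O2 libraries, against 11.3, 11 and 10.8 CPM in untreated libraries (log2 1.39), ZFP36L1 rose by 0.35 and TOB1 by 0.27.

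Of 26 NF-κB targets and inflammatory genes tested, 8 rose and none fell (median 0.15), against 1.54% higher among all genes tested. PTGS2, the inducible cyclooxygenase, had 51.7, 47.7 and 50 CPM in H2O2 libraries, against 30.4, 28.8 and 28.1 CPM in untreated libraries (log2 0.77, adjusted p = 3.51e-16). The chemokine CXCL2 rose by 1.5 to a mean of 5.84 ± 0.18 CPM in H2O2 libraries, against 2.07 ± 0.43 CPM in untreated libraries (SD, n = 3 each). CCL2 rose by 0.62, and ZC3H12A, an RNase that degrades inflammatory mRNAs, by 0.82. At low mean levels of 0.936, 1.17 and 2.0 CPM, IL6 rose by 1.8, CXCL8 by 1.3 and CXCL1 by 1.0. Of the feedback inhibitors, NFKBIA rose by 0.17 (adjusted p = 0.0186), and TNFAIP3 at 0.04 did not pass. The NF-κB subunits NFKB1 at -0.12, NFKB2 at 0.04, RELA at -0.05 and RELB at 0.04 did not pass either. By DESeq2 the count was 4. Of 25 YAP and TEAD targets, 5 rose and none fell, with ANKRD1 up by 0.44 and AMOTL2 up by 0.38 beside CTGF, CYR61 and GADD45B, which are also on the early gene list, and with YAP1 at -0.07. The count of YAP and TEAD targets was 5 or 6 with any 1 library left out. In the fit over all 18 libraries CYR61 and AMOTL2 passed, and CTGF, ANKRD1 and GADD45B did not. The median of these targets was 0.05, with 13 of 25 above 0, and 1.54% of all genes tested rose.

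The largest falls of nuclear genes above 5 CPM were in the CLK kinases, which phosphorylate the SR proteins that guide splice site choice. CLK1 had 41.3, 44.3 and 44.6 CPM in H2O2 libraries, against 75, 71.8 and 76.2 CPM in untreated libraries (log2 -0.78, SE 0.045, adjusted p = 7.64e-18). CLK4 had 27.0, 24.7 and 26.2 CPM in H2O2 libraries, against 41.6, 39.6 and 39.8 CPM in untreated libraries (log2 -0.64, SE 0.053, adjusted p = 1.35e-12). CLK1 and CLK4 passed under every alternative, with no overlap of groups. CLK2 fell by 0.18 (adjusted p = 0.026), a call kept in 1 of the 6 fits that each leave out a library, and CLK3 was at -0.03. None of the other 12 of the 16 CLK, DYRK and SRPK kinases tested passed, with SRPK1 at 0.02 and DYRK1A at 0.01.

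The substrates of these kinases moved little. Of 18 SR proteins, 2 rose and none fell, against 1.54% higher and 1.27% lower among all genes tested. These were SRSF7 by 0.17 (adjusted p = 0.00448) and SRSF6 by 0.17 (adjusted p = 0.00814), and the list median was -0.01. In 6 of the 18 every H2O2 library was above every untreated one, against 9.9% of all genes, and in 2 the reverse, against 9.6%. Of 28 hnRNP genes, HNRNPUL2 fell by 0.13 and none rose, against 1.27% lower among all genes tested. HNRNPM, one of the study's KD targets, was 1550, 1530 and 1550 CPM in H2O2 libraries, against 1620, 1640 and 1600 CPM in untreated libraries (log2 -0.07, adjusted p = 0.276). MAGOHB, the other, had a log2 fold change of 0.05 (adjusted p = 0.621). Of 19 nonsense-mediated decay factors, UPF2 fell by 0.19 and UPF3B by 0.16, against 1.27% lower among all genes tested. In 6 of the 19 every H2O2 library was below every untreated one, and in 2 the reverse. The paraspeckle RNA NEAT1 fell by 0.14 (adjusted p = 0.0168), and its log2 change was -0.06 (adjusted p = 0.517) once a trend on exon length was removed. The snoRNA host transcripts SNHG15 and SNHG8 rose by 0.47 and 0.27. These are gene totals, which do not show which isoform changed.

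Most genes of the mitochondrial genome fell. Of its 37 genes, all of them tested, 22 fell and none rose, against 1.27% lower among all genes. MT-ND6, the complex I subunit and single protein gene read from the light strand, had 1300, 1220 and 1170 CPM in H2O2 libraries, against 1680, 1790 and 1620 CPM in untreated libraries (log2 -0.47, SE 0.038, adjusted p = 1.55e-11). MT-ND5, another complex I subunit, had 4990, 4840 and 4670 CPM in H2O2 libraries, against 6320, 6290 and 6030 CPM in untreated libraries (log2 -0.36, adjusted p = 2.2e-11). Both were separated without overlap. MT-CYB, the complex III subunit, fell by 0.26, MT-ND4 by 0.24, MT-ND3 by 0.22, MT-ND4L by 0.21, MT-ND2 by 0.18 and MT-CO2 by 0.14. By contrast MT-CO3 was at 0.00, MT-ATP6 at -0.07 and MT-ND1 at -0.05, and both rRNAs, MT-RNR1 at 0.08 and MT-RNR2 at -0.02, did not pass. The mitochondrial share of all counts was 9.22% to 9.72% in H2O2 libraries and 9.84% to 10.3% in untreated libraries.

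The falls are given here by annotated strand and by place on the genome. Genes annotated to the light strand numbered 9, of which 6 fell, with a median of -0.47 over the 9. Heavy-strand genes numbered 28, of which 16 fell, with a median of -0.21 over the 28. Strand goes with RNA class, as 8 of the 9 light-strand genes are tRNA genes. Among tRNA genes alone the medians were -0.52 for these 8 and -0.28 for the 14 of the heavy strand. Along the heavy strand, 2 of 9 genes within 4000 bases of the first gene fell (median -0.02), 5 of 10 between 4000 and 9500 bases (median -0.21) and 9 of 9 beyond 9500 bases (median -0.29), with limits set after the values were seen. Spearman's correlation of log2 fold change with distance was -0.70 over the 28 genes, which share 1 long precursor RNA and the same 6 libraries. The tRNA genes moved most, with 14 of 22 lower and a median of -0.29. MT-TW had 35.5, 39.9 and 37.3 CPM in H2O2 libraries, against 69.6, 69.4 and 78.3 CPM in untreated libraries (log2 -0.95, adjusted p = 4.22e-18). MT-TW lies beside the light-strand cluster MT-TA, MT-TN, MT-TC and MT-TY, which fell by 0.45, 0.59, 0.65 and 0.66. The tRNA genes span 59 to 75 bases and the library fragments about 200 bp, so a fragment on one of them also covers its neighbours, and strand cannot be told apart in these counts. The mitochondrial mRNA count of 8 lower was 5 without untreated replicate 1 and 3 in the fit over all 18 libraries, and the tRNA count was 13 to 15 with any 1 library left out and 6 in that fit. None of the 29 nuclear genes of the mitochondrial transcription and RNA processing machinery tested passed (median 0.01), against 2.8% of all genes.

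**Figure D3:**
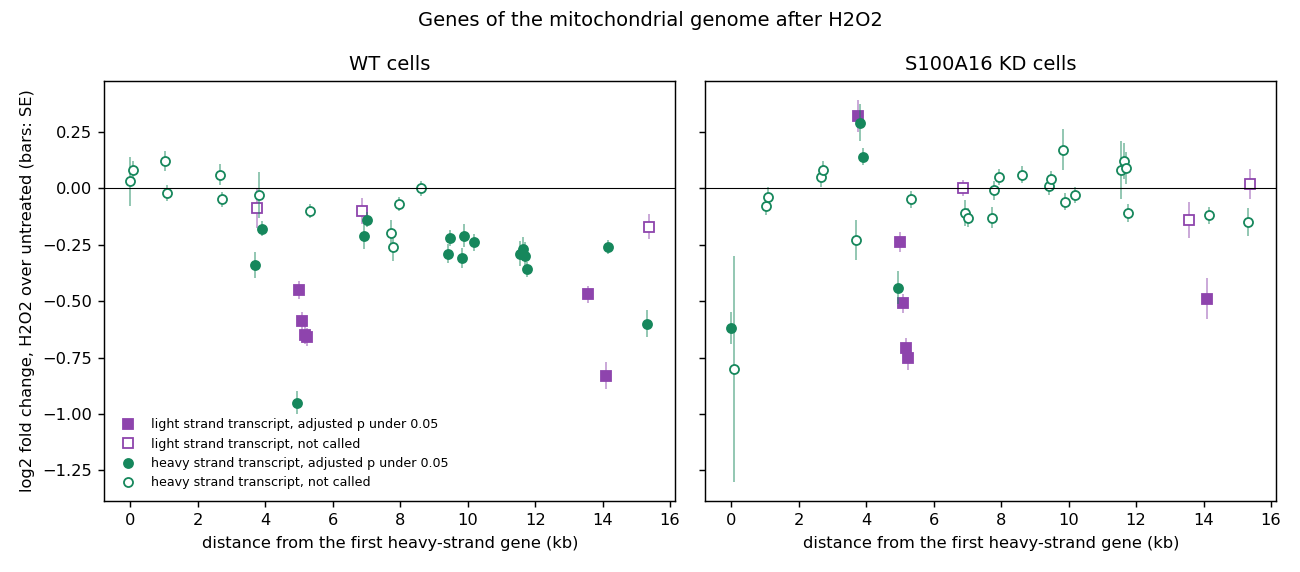
Log2 fold change of H2O2 over untreated (vertical axis, bars are SE) for the 37 mitochondrial genes by distance in kb from the first heavy-strand gene (horizontal axis), in WT cells on the left and S100A16 KD cells on the right. Squares are light-strand and circles heavy-strand genes, filled where the adjusted p is under 0.05. In WT cells the heavy-strand points lie near 0 at the left and at a median of -0.29 beyond 9500 bases.

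Nuclear genes of the respiratory chain and the cytosolic ribosome had small positive fold changes. Of 79 cytosolic ribosomal protein genes, 30 rose and none fell, against 1.54% higher among all genes tested. All 79 had a log2 fold change above 0, and the median was 0.11. The median exon length of the list was 2982 bases, and 3.22% of genes of at least 5 CPM with 2610 to 3399 bases rose. RPL15 had 288, 289 and 307 CPM in H2O2 libraries, against 250, 250 and 269 CPM in untreated libraries (log2 0.20, adjusted p = 0.000433), RPS29 rose by 0.27, RPS13 by 0.21 and RPL29 by 0.20. In 56 of the 79 genes each H2O2 library was above each untreated library, against 9.9% of all genes tested. The count of 30 rested on single libraries: it was 8 without untreated replicate 1, 8 without untreated replicate 2, 18 without H2O2 replicate 3, 42 without H2O2 replicate 2 and 0 in the fit over all 18 libraries. Many ribosomal protein genes have near-identical pseudogenes, so their counts are uncertain. Of 74 nuclear subunits of oxidative phosphorylation, 10 rose and none fell (median 0.10), among them UQCRH by 0.19, ATP5G3 by 0.24, COX6B1 by 0.20 and COX5B by 0.16. That count was 2 without untreated replicate 1, 5 without untreated replicate 2 and 5 once a trend on exon length was removed. The median exon length of these 74 was 2468 bases, and 4.69% of genes of at least 5 CPM with 1665 to 2609 bases rose. In 39 of the 74 each H2O2 library was above each untreated library, and in none below. Of 39 translation factors, 6 rose, including EIF1 by 0.23 and RACK1 by 0.15, against 1.54% higher among all genes, and EIF5B fell by 0.13. The count of 6 was 1 without H2O2 replicate 3, 1 without untreated replicate 1, 1 without untreated replicate 2 and 3 without H2O2 replicate 1. None of 74 mitochondrial ribosomal protein genes passed, against 2.8% of all genes. Of these 74, 62 had a log2 fold change above 0 (median 0.06). In 19 each H2O2 library was above each untreated library and in 1 below.

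The classical antioxidant targets of NRF2 responded weakly at 2 h. Of 39 NRF2 targets and glutathione genes, 5 rose and none fell (median 0.07), against 1.54% higher among all genes tested. The fold change was above 0 in 32 of the 39. In 15 every H2O2 library was above every untreated one, against 9.9% of all genes, and in 1 the reverse, against 9.6%. TXN, the thioredoxin that reduces oxidised cysteines, had 332, 364 and 358 CPM in H2O2 libraries, against 272, 300 and 304 CPM in untreated libraries (log2 0.27, adjusted p = 1.45e-05). AKR1C1 rose by 0.20, NQO1 by 0.15, AKR1C3 by 0.14 and SRXN1, which repairs overoxidised peroxiredoxins, by 0.13. HMOX1, the haem oxygenase that many oxidants induce, had 21.4, 23.5 and 21.7 CPM in H2O2 libraries, against 20.2, 21.5 and 22.6 CPM in untreated libraries (log2 0.05, SE 0.062, adjusted p = 0.776). The groups overlapped for HMOX1, and TXNRD1 at 0.04 and GCLM at -0.02 did not pass either. Untreated levels were already high per length for part of this list: the mean deposited RPKM (reads per kilobase of exon, scaled to library size) of untreated cells was 425 for NQO1 and 254 for TXN, and 8.88 for HMOX1. The count of 5 was 2 without untreated replicate 1, 3 without untreated replicate 2 and 0 in the fit over all 18 libraries. Of 25 peroxide and superoxide scavengers none passed (median 0.06), against 2.8% of all genes. In 2 of them every H2O2 library was above every untreated one, against 9.9% of all genes, and in none the reverse, against 9.6%.

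In other stress programmes few genes passed, beside 1.54% higher and 1.27% lower among all genes tested. Of 30 p53 targets, 3 rose and 1 fell (median -0.01). GDF15, a secreted stress cytokine, had 4.97, 6.40 and 5.35 CPM in H2O2 libraries, against 3.32, 2.98 and 2.02 CPM in untreated libraries (log2 1.01, adjusted p = 6.36e-06), PMAIP1 rose by 0.25 and TRIAP1 by 0.20, while GADD45A fell. The cell cycle inhibitor CDKN1A, at 29.5, 27.6 and 27.3 CPM in H2O2 libraries and 25.4, 26.4 and 25.2 CPM in untreated libraries, did not pass (adjusted p = 0.22). The p53 count of 3 was 1 without H2O2 replicate 3, 1 without untreated replicate 1 and 1 without untreated replicate 2.

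Of 23 genes of the endoplasmic reticulum unfolded protein response, DDIT3 rose by 0.31 and the chaperone HSPA5 by 0.17, and none fell. The fold change was above 0 in 18 of the 23 (median 0.07). In 10 every H2O2 library was above every untreated one, against 9.9% of all genes, and in 1 the reverse, against 9.6%. Of 24 heat shock genes 2 fell and none rose. CHORDC1, a co-chaperone of HSP90, fell by 0.13, and HSP90AA1, an abundant cytosolic chaperone, had 4940, 4840 and 4730 CPM in H2O2 libraries, against 5670, 5600 and 5320 CPM in untreated libraries (log2 -0.19, adjusted p = 0.000108). Of 27 ATF4 targets, SLC3A2 rose by 0.12. Of 42 interferon-stimulated genes, IFI6 by 0.59, ISG15 by 0.19, IFIT1 by 0.18 and OASL by 0.18 rose. That count of 4 was 1 without untreated replicate 2, 1 without untreated replicate 3, 2 without H2O2 replicate 2, 2 without H2O2 replicate 3 and 1 by DESeq2. The fold change was above 0 in 35 of the 42 (median 0.12). In 9 every H2O2 library was above every untreated one, and in 2 the reverse.

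Single genes of DNA repair and metabolism also changed. Of 30 DNA repair genes, BRCA2 fell by 0.27, BRCA1 by 0.17 and RAD50 by 0.15 and none rose, against 1.27% lower among all genes. The count of 3 was 0 without untreated replicate 1 and 1 without untreated replicate 2. It was 2 once a trend on exon length was removed, where RAD50 did not pass, and the median exon length of the list was 6303 bases. PDK4, which restrains pyruvate oxidation, rose by 0.46, and the vasodilator peptide gene ADM by 0.35. LPCAT4, a lysophospholipid acyltransferase, had 15.0, 17.5 and 17.1 CPM in H2O2 libraries, against 24.5, 24.2 and 26.2 CPM in untreated libraries (log2 -0.59, adjusted p = 3.77e-09), and passed under every alternative. HDAC4, a class IIa histone deacetylase, fell by 0.42 (adjusted p = 0.0185), a call kept in 1 of the 6 fits that each leave out a library. No gene passed on the lists of mitosis (35 tested) and glycolysis (20 tested). With 2.8% of all genes called, lists of this size would hold few or none. On that of DNA replication (33 tested) POLA1 fell by 0.20 and PCNA rose by 0.14 (adjusted p = 0.05 after rounding).

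**Figure D4:**
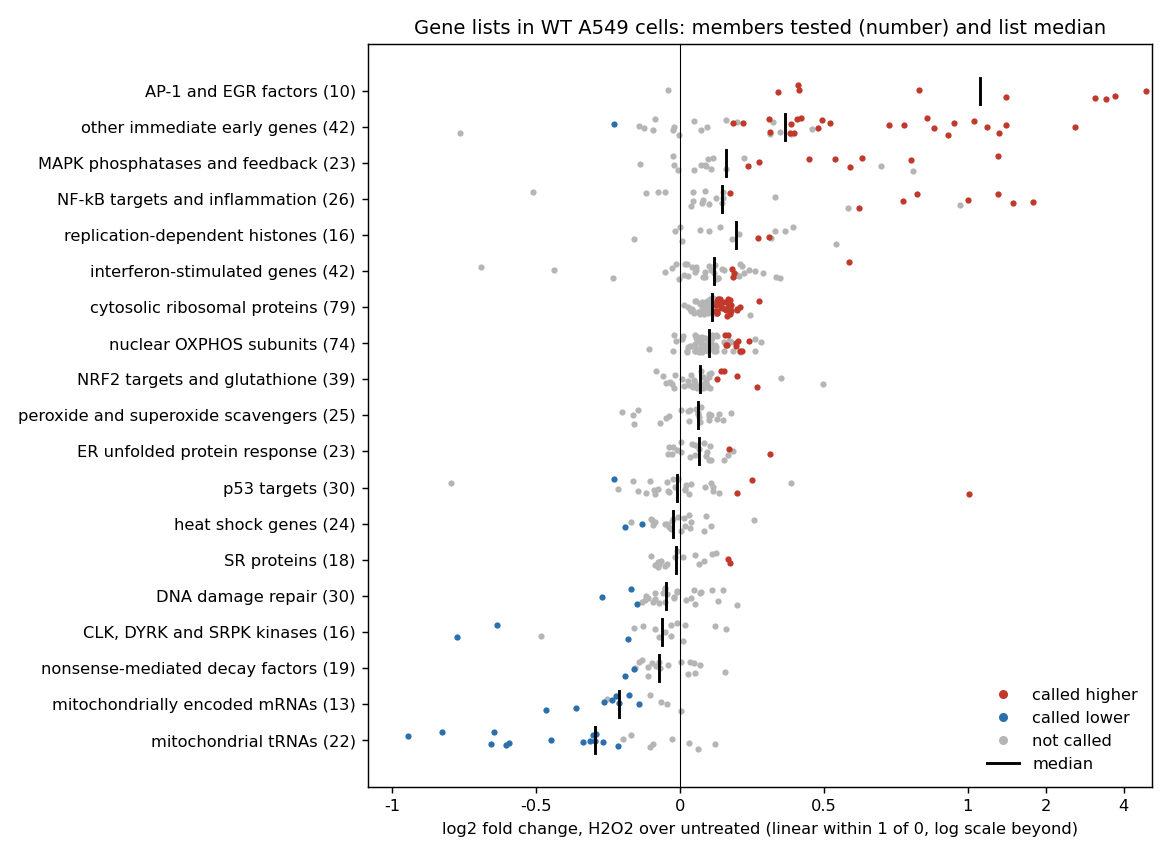
Log2 fold change of H2O2 over untreated in WT cells (horizontal axis, linear within 1 of 0 and logarithmic beyond) for the tested members of 19 gene lists, with called members in red or blue and a black bar at the list median. Medians are 1.12 for AP-1 and EGR factors, 0.37 for other immediate early genes, -0.21 for mitochondrial mRNAs and -0.29 for mitochondrial tRNAs.

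The genes that rose were shorter than those that fell. The median exon length was 2980 bases in genes that rose, 6684 in genes that fell and 3677 in all tested. The median span on the genome was 7521, 48326 and 20944 bases in the same order. Called genes had higher levels, with median CPM of 34.2 in genes that rose, 58.1 in genes that fell and 6.91 in all tested. In tested genes of at least 5 CPM the median exon length was 4966 bases and the median span 32785 bases. The median number of merged exons was 4 in genes that rose, 17 in genes that fell and 11 in tested genes of at least 5 CPM. Of genes that fell, 30.3% spanned more than 100 kb, against 3.95% of genes that rose, 15.2% of all and 18.6% of those of at least 5 CPM. Across the 10878 genes with at least 5 CPM, Spearman's correlation of log2 fold change was -0.32 with exon length, -0.28 with span and 0.06 with GC content, the last over 9822 genes. The median log2 fold change was 0.05 in the shortest 10% of these genes, of which 5.88% rose and 2.48% fell, and -0.06 in the longest 10%, of which 0.184% rose and 4.78% fell.

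The same dependence on length was then set out library by library. The slope of log2 level on exon length, per doubling and relative to the mean of the 6 libraries, was -0.008, -0.002 and -0.026 in H2O2 replicates 1, 2 and 3, against 0.014, 0.013 and 0.009 in untreated replicates 1, 2 and 3. All 3 slopes were negative under H2O2 and all 3 positive without it, with H2O2 replicate 3 the furthest from 0 and H2O2 replicate 2 the nearest. They come from the same values and are centred on the mean of the 6 libraries. Opposite signs in the groups are thus partly fixed and add no separate support. With the trend removed from each library, an alternative chosen after the data were seen, 441 genes passed, 251 higher and 190 lower, and 379 were shared with the 555. The early genes kept their size, at 4.85 for EGR1 and 3.38 for FOS, as did CLK1 at -0.77, and 28 of the 79 ribosomal protein genes passed as higher. Whether RNA quality or library preparation moved with the groups was not tested.

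**Figure D5:**
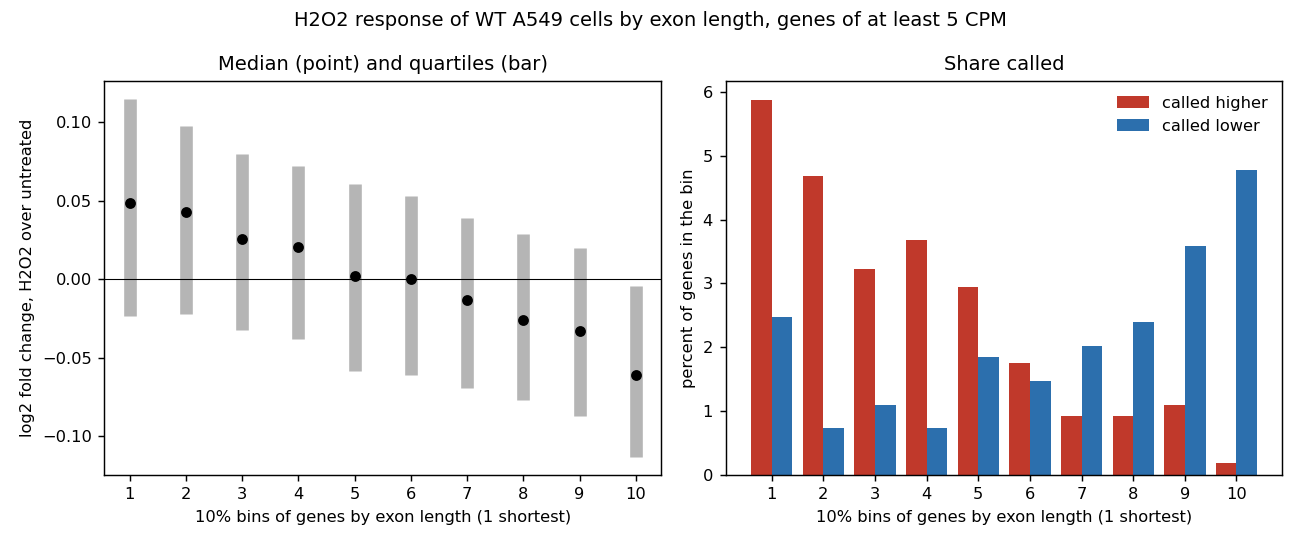
Left, median (points) and quartiles (bars) of the log2 fold change of H2O2 over untreated WT cells in 10% bins of the 10878 genes of at least 5 CPM by exon length; right, percent of each bin called higher (red) and lower (blue). Medians run from 0.05 in the shortest bin to -0.06 in the longest.

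The response was then set beside that of S100A16 KD cells under the same dose and time, which shares no library with it. In that line 801 genes passed, 3.89% of those tested. Of the 304 genes that rose in WT cells, 302 were tested in KD cells, where 65.6% had a positive fold change, 20 rose and 7 fell, with a median of 0.04; 2.29% of all genes tested rose in KD cells and 1.6% fell. Of the 251 that fell in WT cells, 73.7% had a negative fold change in KD cells, where 36 fell and 4 rose. Over all 19232 genes tested in both lines the sign was shared by 56.7%. EGR1 was 3.38 ± 1.5 CPM in H2O2-treated KD cells and 1.64 ± 0.44 CPM in untreated KD cells, FOS 12.0 ± 3.9 and 8.07 ± 0.26 CPM, and CLK1 75.6 ± 1.7 and 68.3 ± 4.8 CPM in the same order (SD, n = 3 each). None of these 3 passed in KD cells.

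The difference between the lines was tested as an interaction, given as the log2 fold change in KD cells minus that in WT cells. It passed for 256 genes, 1.19% of 21551, with 98 positive and 158 negative. That split was not stable: it was 43 and 194 with scaling by total counts alone, 398 and 124 by DESeq2, 317 and 175 without H2O2 KD replicate 3, and 175 and 117, 140 and 99 and 163 and 138 without untreated KD replicates 1, 2 and 3. Among the genes that rose in WT cells 113 passed, each of them negative, and among those that fell 33 passed, each of them positive. The WT libraries that chose these genes also enter the interaction, so that direction is partly fixed by the choice. The difference was -3.83 for EGR1 (SE 0.49, adjusted p = 0.00988), -2.83 for FOS (adjusted p = 0.00255), -1.40 for JUN (adjusted p = 5.17e-21) and 0.92 for CLK1 (adjusted p = 2.58e-15). JUN was 50.8 ± 1.6 CPM in H2O2-treated KD cells and 50.3 ± 3.0 CPM in untreated KD cells, between the treated and untreated WT levels. Of the 22 mitochondrial genes that fell in WT cells, 6 also fell in KD cells, namely 5 light-strand genes and MT-TW, and MT-ND2 rose there by 0.14 (adjusted p = 0.0373). The interaction passed for 7 of the 22, each positive. MT-TF, at 0.03 in WT cells, fell by 0.62 in KD cells. The count of 256 was 116 without untreated WT replicate 1, 136 without untreated WT replicate 2, 140 without H2O2 WT replicate 2, 150 without H2O2 KD replicate 2 and 492 without H2O2 KD replicate 3.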

How the data were processed

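Poly(A) mRNA was sequenced from 6 libraries of A549 cells. Deposited were a table of raw read counts, which are whole numbers, with the exon length of each gene, and a second table of RPKM. The deposited RPKM followed from counts, exon length and library total for 100% of 531539 values above 0 (tolerance 0.001). Per the submitters' processing notes, the authors used HISAT2 2.2.1, StringTie 2.1.4, DESeq2 1.32.0, FastQC 0.11.9 and SAMtools 1.15.1 on build GRCh38. Neither the counting program nor its strand setting was given in the sources used here, so overlapping and antisense genes and near-identical copies are uncertain. Of counts from 1 to 19, 18.6% to 19.9% were odd, so both mates of a pair were probably counted. The number of per-sample columns not used was 0.

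Counts of the 6 libraries were fitted in edgeR 4.0.16 under R 4.3.3 (TMM scaling, filterByExpr, robust quasi-likelihood F test). A gene was called where its Benjamini-Hochberg adjusted p, over every gene in the fit, was under 0.05. A log2 fold change is H2O2 over untreated, and CPM are scaled by TMM, except in sums over marker lists. The S100A16 KD libraries were fitted alone and, for the interaction, with the WT libraries. Alternatives used limma 3.58.1, DESeq2 1.42.0 and the settings listed in the closing section, with figures in matplotlib 3.10.9. The fit was tested on simulated data. Pairs of libraries within a group differed by more than sampling noise, at a chi-square per degree of freedom of 3.09 to 5.39. The design text calls them biological replicates, but the sources used here do not say that they came from separate cultures. The p-values thus measure the spread between these libraries.

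The comparison and the 46 gene lists were chosen with earlier results of these data known, and lists are described by counts and medians with no set test. Genes were named as targets and anchors, as the 15 highest and 15 lowest changes above 5 CPM without overlap, as the 5 of highest RPKM in each direction and as called list members, at most 6 or the 4 of smallest adjusted p per list and direction except in the early, feedback, splicing kinase and mitochondrial lists. HBEGF, IL6, CXCL8, CXCL1, NFKBIA, NFKB1, NFKB2, RELA, RELB, TNFAIP3, YAP1, FOSL2, CLK3, SRPK1, DYRK1A and the markers were added after their values were seen. A gene named by this rule is not reported here. Of the 19803 genes tested, 15883 matched a current or older symbol and 11481 a RefSeq promoter.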

Additional observations from a re-analysis of the deposited data

Results flagged for a closer look

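The responses of 65 named genes differed between S100A16 KD and WT cells by the interaction test of edgeR (adjusted p under 0.05). The fold change was lower in KD cells for 51 of them and higher for 14. Values are the log2 fold change in KD cells minus that in WT cells, which is not a difference in level. For some of the 51, untreated KD cells were above H2O2-treated WT cells, with CPM scaled within each line. Examples are ATF3 (43.1 against 19.9 CPM), CXCL2 (13.6 against 5.84 CPM) and DUSP6 (19.7 against 12.5 CPM). For others they were below, as for EGR1 (1.64 against 44.2 CPM) and FOS (8.07 against 69.7 CPM). Most of the genes were named from the WT libraries that also enter the test, so the sign is partly fixed by the choice, and an explanation of the difference was not tested.

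Among AP-1, EGR and related early factors the difference was -3.83 for EGR1, -2.83 for FOS, -3.01 for FOSB, -1.40 for JUN, -0.66 for JUNB, -0.47 for SRF, -2.54 for NR4A1, -1.51 for NR4A2, -1.30 for IER2, -0.86 for IER3 and -0.68 for ATF3. For other early genes it was -0.86 for KLF10, -0.66 for KLF6, -0.83 for CTGF, -0.70 for CYR61, -0.57 for PPP1R15A, -0.44 for MCL1, -0.66 for RHOB, -0.56 for EREG and -0.29 for AREG. Among feedback and mRNA decay genes it was -1.26 for DUSP1, -0.94 for DUSP6, -0.69 for DUSP5, -0.51 for SPRY2, -0.27 for ERRFI1, -0.45 for PHLDA1, -0.48 for TRIB1, -0.46 for LIF, -1.21 for ZFP36, -0.39 for ZFP36L1 and -0.37 for TOB1. For inflammatory genes and YAP targets it was -0.84 for PTGS2, -1.40 for CXCL2, -0.52 for CCL2, -0.65 for ZC3H12A and -0.24 for ANKRD1.

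In the opposite direction the splicing kinases stood at 0.92 for CLK1 and 0.51 for CLK4, and 0.53 for LPCAT4, 0.39 for GADD45A, 0.24 for UPF3B and 0.21 for EIF5B were further nuclear genes that fell in WT cells. The mitochondrial genes stood at 0.45 for MT-TT, 0.39 for MT-TL2, 0.30 for MT-TG, 0.31 for MT-ND2, 0.26 for MT-ND3, 0.25 for MT-ND5 and 0.20 for MT-ND4. Redox and p53 genes that rose in WT cells stood at -0.31 for TXN, -0.19 for NQO1, -0.29 for PMAIP1 and -0.26 for TRIAP1. Ribosomal, translation and respiratory genes stood at -0.38 for RPS29, -0.30 for RPL29, -0.21 for RPL15, -0.27 for EIF1, -0.33 for ATP5G3 and -0.34 for COX6B1. The remaining values were -0.49 for PDK4, -0.44 for SNHG15, -0.29 for PSMB3 and -0.21 for S100A6. Of the KD targets of the study, which were not called in WT cells, S100A16 stood at -0.36 and HNRNPM at 0.20.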

How the results depend on the processing

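The number of genes called for H2O2 in WT cells, 555, stayed between 441 and 817 under DESeq2 size factors, upper-quartile scaling, total counts, 2 other filters, DESeq2, limma-trend, the fit over 12 libraries, halved counts, a fit that is not robust, without mitochondrial genes, with the exon length trend removed and with a replicate block. It was 106 by limma on log2(RPKM + 0.1), 107 by limma on log2(RPKM + 1) and 50 in the fit over all 18 libraries, all 50 shared with the 555, and 225 to 558 with 1 library left out. With the replicate number as a block 817 genes were called, which include all 555. Deviations of same-numbered libraries from their group means had correlations of -0.02, -0.003 and 0.07 over 10878 genes. With 3 libraries a group these values cannot settle whether the numbers pair the libraries. Whether same-numbered libraries shared a culture or batch was not tested.

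The interaction count, 256, was 237 with total counts, 522 by DESeq2 (398 positive and 124 negative), 21 in the fit over all 18 libraries, 425 with the replicate block and 116 to 492 with 1 library left out. The cause of these shifts was not tested. Of 3141 values of named genes under the alternatives, 2637 kept their side of the threshold and 504 lost the call, and 0 called values changed sign. GCLM, not called at -0.02, was 0.01 without untreated replicate 1. Of 136 named genes called, 34 were called in the fit over all 18 libraries and 28 under every alternative that measured them. With 3 libraries a group and 37005520 to 48482897 counts each, genes under about 1 CPM were called at large fold changes alone.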

Other observations

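Called features without a current or older gene symbol numbered 55, of which 28 rose and 27 fell. Of these, 30 lay within 5000 bases of a named gene called in the same direction. RP11-1100L3.8, up by 2.51, overlaps NR4A1 (2.59), CTC-250I14.6, up by 1.37, overlaps IER2 (1.31), and RP11-69I8.3, up by 1.28, overlaps CTGF (1.06). XXbac-BPG252P9.10, up by 0.85, overlaps IER3 (0.88). Other pairs moved by unlike amounts, such as BX470102.3, up by 0.73, which overlaps S100A6 (0.16). Reads of the 2 features of a pair cannot be told apart without strand. Of 16 replication-dependent histone genes tested, HIST1H2BK rose by 0.31 and HIST1H1C by 0.27, with a list median of 0.19.

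The genes of largest span that fell were GRIN2B (544.0 kb, log2 -0.25), TLN2 (454.1 kb, -0.29), PALLD (431.4 kb, -0.12), EIF4G3 (370.6 kb, -0.14) and ITPR1 (354.5 kb, -0.25). Those of largest span that rose were CAV2 (221.2 kb, 0.17), EPB41L5 (166.1 kb, 0.22), SGK1 (148.9 kb, 0.31), VMP1 (135.1 kb, 0.17) and FAM13B (114.0 kb, 0.33).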
